A study of Homo sapiens with 3 samples.

Results

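The genes described here encode 3 large classes of RNA-binding proteins: the heterogeneous nuclear ribonucleoproteins (HNRNP), the serine/arginine-rich splicing factors (SRSF, with their relatives TRA2A and TRA2B) and the RNA-binding motif proteins (RBM). They were chosen by symbol. A probe set, the group of short oligonucleotides that reads 1 stretch of transcript on the array, was a member if its gene symbol began with HNRNP, was SRSF or RBM followed by a number, or was TRA2A or TRA2B. This gave 251 of the 54675 probe sets of the array. Of these, 231 were listed for 1 gene only and named 69 of the 19775 genes that have a probe set of their own, and the remaining 20 were shared with other genes. Prefixes are not functions, and the rule also took in HNRNPA3P1, a pseudogene of HNRNPA3, and HNRNPD-DT, a transcript that runs divergently from HNRNPD.

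Total RNA came from 3 unstressed cultures of HEK-293T, a human embryonic kidney line that carries the SV40 T antigen, an insertion the labels give as temperature sensitive. No label names a heat shock, a small interfering RNA or a reporter plasmid for these cultures. The submitters used the arrays to learn which genes of a screen for regulators of the heat shock factor HSF1 the line expresses. One culture was harvested 24 h after seeding of 1000000 cells, and the others 48 h after seeding of 375000 cells (low-seeded) or 750000 cells (high-seeded). The RNA integrity numbers were 9.5 at 24 h and 9.6 (low-seeded) and 10.0 (high-seeded) at 48 h. Harvest time and seeding therefore differ together and cannot be told apart. The sample titles also carry running numbers, consecutive for the 48 h arrays and further off for the 24 h array. What these numbers stand for is not given. No label says whether the cultures came from separate passages, so that p-values refer only to these samples. With 1 array at 24 h, the spread measured for a probe set is that between the 48 h cultures. The test below draws this spread toward that of other tested probe sets of like signal. Values are MAS5 signals, background-corrected intensities on a linear scale that average the same on every array. Signals of different probe sets depend on their oligonucleotides and were not set against each other. In such total RNA, fewer cells of a type and less RNA per cell cannot be told apart. Of markers of differentiated kidney, 1 of 10 measured genes (LRP2, at 111 to 218, 1 of 2 probe sets above) was above background as defined below. NPHS1 (7.77 to 15.3), AQP2 (20.9 to 74.0) and CUBN (12.1 to 38.6) were not. Of kidney progenitor genes 5 of 8 were, where 51.4% of all genes were. They were EYA1 (297 to 438, 1 of 2 above), HOXD11, SIX2 (615 to 808), WT1 (362 to 514, 1 of 2 above) and PAX8 (271 to 561, 1 of 8 above). LHX1 (17.5 to 66.0), OSR1 (5.87 to 38.2) and PAX2 (85.5 to 145.9) were not.

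Nascent transcripts are packaged by HNRNP proteins, which often repress the use of nearby splice sites. SR proteins carry RNA recognition motifs and a tail rich in arginine and serine, bind exonic enhancers and recruit the splicing machinery, and are switched by kinases of the SRPK and CLK families. RBM is a naming series rather than a family: it holds spliceosome components, ribosome assembly factors, stabilisers of messenger RNA and tissue-specific splicing regulators. Several members are tied to the heat shock response. SRSF1 and SRSF7 gather with HSF1 in the nuclear stress bodies of heated human cells, SRSF10 becomes a general splicing repressor once heat shock has removed its phosphates, and RBM3 is induced by mild cold.

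Because the cultures were collected for work on HSF1, the 250 bases before the transcription starts of the members were searched for GAANNTTC, the paired core of the heat shock element that HSF1 binds (N is any base, and the motif reads alike on both strands). RefSeq promoters (GRCh38.p14) were at hand for 69 of the 80 symbols named by the member probe sets, shared ones included. The core occurred in 5 of these 69 symbols (7.25%), against 7.05% of the 27305 symbols with a RefSeq promoter. Windows of 60 bases around the 5 matches follow, 5′ to 3′ on the strand of the gene, with the core in capitals.
HNRNPA2B1: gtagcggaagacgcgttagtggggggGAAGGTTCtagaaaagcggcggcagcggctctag
HNRNPC: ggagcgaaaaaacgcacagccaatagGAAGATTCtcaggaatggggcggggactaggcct
RBM3: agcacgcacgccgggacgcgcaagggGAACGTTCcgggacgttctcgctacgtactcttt
RBM23: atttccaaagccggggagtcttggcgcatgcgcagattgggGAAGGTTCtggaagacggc
SRSF8: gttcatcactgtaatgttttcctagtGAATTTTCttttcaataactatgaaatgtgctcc
The windows lie at chr7:26200751-26200810 (minus strand) for HNRNPA2B1, chr14:21269456-21269515 (minus) for HNRNPC, chrX:48574424-48574483 (plus) for RBM3, chr14:22919150-22919209 (minus) for RBM23 and chr11:95066665-95066724 (plus) for SRSF8. The core starts 38 bases before the transcription start in HNRNPA2B1, 47 in HNRNPC, 34 in RBM3, 19 in RBM23 and 186 in SRSF8. A match is a description of the letters, not a bound site. All 5 genes were above background in the unstressed cultures, as were 92.8% of the member genes. None of their probe sets was called between harvest times below, where 0.303% of all probe sets tested were.

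The member promoters were rich in CpG. The median window of 250 bases held 22 CpG among 88 member windows and 11 among all 35116 windows, and 87.5% of the member windows held at least 10, against 52.2% of all. The extremes were both SR genes. SRSF4 had 36 CpG (chr1:29181901-29182150, minus strand) and SRSF8, an intronless relative of SRSF2, had 2 (chr11:95066627-95066876, plus strand). The windows, which end at the base before the start, are printed 5′ to 3′ with each CG in capitals.
SRSF4: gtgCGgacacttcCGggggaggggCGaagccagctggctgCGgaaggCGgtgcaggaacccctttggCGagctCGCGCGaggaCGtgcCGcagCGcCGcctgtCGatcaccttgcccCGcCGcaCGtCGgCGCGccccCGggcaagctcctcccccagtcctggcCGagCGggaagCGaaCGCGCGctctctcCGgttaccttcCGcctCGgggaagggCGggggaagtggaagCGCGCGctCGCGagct
SRSF8: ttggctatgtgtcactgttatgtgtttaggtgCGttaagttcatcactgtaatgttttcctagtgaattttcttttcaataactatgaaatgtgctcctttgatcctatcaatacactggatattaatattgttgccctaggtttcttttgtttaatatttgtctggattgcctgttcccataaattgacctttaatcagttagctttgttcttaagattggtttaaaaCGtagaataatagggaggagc
Both genes were above background, SRSF8 with 4 of 4 and SRSF4 with 3 of 5 probe sets.

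Most of these genes were expressed in unstressed HEK-293T cells. A probe set counted as above background if each of the 3 arrays read it brighter than the 95th percentile of 366 probe sets for olfactory and taste receptors and other genes restricted to distant tissues. This threshold stood at 92.6 for the 24 h culture and, for the 48 h cultures, at 95.7 with low and 122.6 with high seeding. Of the member probe sets 198 of 251 (78.9%) passed, where 38.2% of all probe sets of the array did. At least 1 probe set of its own passed for 64 of the 69 genes (92.8%), where 51.4% of all genes had one. The 64 comprised 20 of 21 HNRNP, 10 of 10 SRSF, 2 of 2 TRA2 and 32 of 36 RBM genes. A gene with more probe sets meets a rule of at least 1 more easily. The 69 genes had 231 own probe sets, and all 19775 genes had 41097. When most probe sets of a gene had to pass, 59 of the 69 genes did. The share of all genes under that rule was not computed.

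**Figure D1:**
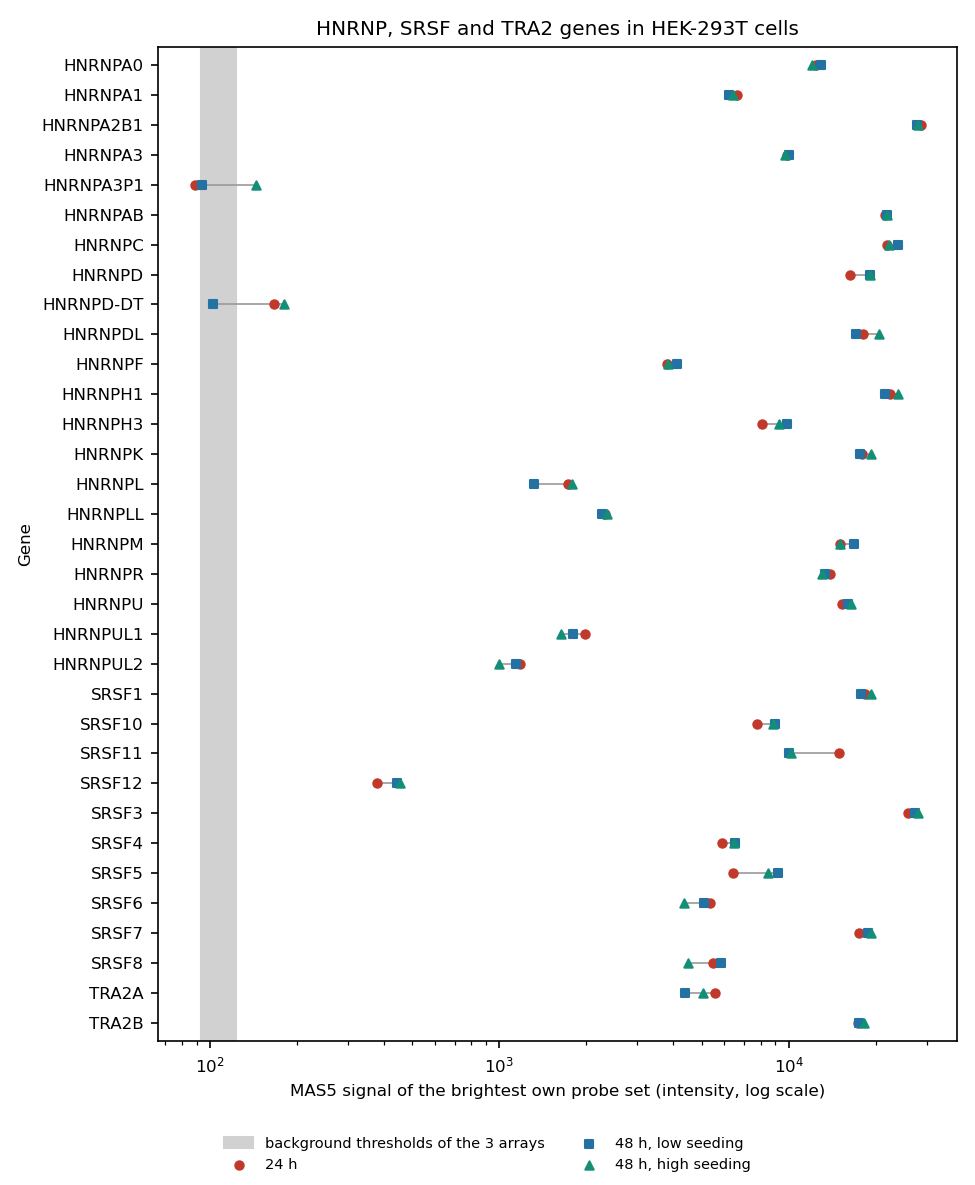
MAS5 signal (horizontal, log scale) of the brightest own probe set of each HNRNP, SRSF and TRA2 gene in the 24 h culture (circles), the low-seeded (squares) and the high-seeded 48 h culture (triangles). Grey marks the thresholds, 92.6 to 122.6. Only HNRNPA3P1 has values under its thresholds, and the 24 h value of SRSF11, 14901, lies to the right of both 48 h values. Distances between genes reflect their oligonucleotides too and are not levels of RNA.

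Among the core HNRNP proteins, the signals of the brightest own probe set repeated closely between cultures. In the paragraphs on levels, the order of the cultures given for a gene is that of this probe set. Other probe sets of the same gene often gave another order. HNRNPA2B1, a reader of methylated adenosine and sorter of RNA, gave 28643 at 24 h and 27749 and 27987 in the low- and high-seeded 48 h cultures. HNRNPC, which coats uridine runs of nascent transcripts, gave 21824, 23894 and 22297 in the same order. HNRNPK, a protein of cytosine-rich RNA, gave 17882, 17617 and 19283. The 24 h culture was the highest of the 3 for HNRNPA2B1, the lowest for HNRNPC and between the others for HNRNPK. The exon repressor HNRNPA1 read 6611, 6204 and 6436 on its brightest own probe set, and it was read at 35929 to 41806 by 2 probe sets shared with the related genes or pseudogenes HNRNPA1P10, HNRNPA1P33 and HNRNPA1L2. Its transcript cannot be separated from theirs there.

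HNRNPU, which scaffolds chromatin-bound RNA, was at 15345, 16037 and 16419. HNRNPM, a regulator of exon choice, was at 15109, 16842 and 15039. HNRNPF, which binds runs of guanosine, was at 3795, 4114 and 3830. The 24 h culture was the lowest of the 3 for HNRNPU and HNRNPF and lay between the others for HNRNPM. HNRNPL, a protein of CA repeats, was the least even of these, with 1720 at 24 h, 1315 in the low-seeded and 1786 in the high-seeded 48 h culture. For HNRNPL the 48 h cultures thus differed more from each other than the 24 h culture did from the high-seeded one.

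The remaining HNRNP genes were above background in every culture. HNRNPA0 ranged over the cultures from 12070 to 12909, HNRNPA3 from 9755 to 10024, HNRNPAB from 21527 to 21912 and HNRNPR, a relative of SYNCRIP, from 13102 to 13912. HNRNPLL, the paralog of HNRNPL that switches CD45 exons in lymphocytes, was at 2318, 2262 and 2352. HNRNPUL1 and HNRNPUL2, relatives of HNRNPU, gave 1636 to 1982 and 994 to 1180, in both cases highest at 24 h. A second probe set of HNRNPUL2 was lowest at 24 h, at 316 against 350 and 408. HNRNPH3 was lowest at 24 h, at 8069 against 9881 and 9243.

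The single HNRNP gene not above background was the pseudogene HNRNPA3P1, whose own probe set gave 88.4 at 24 h and, at 48 h, 93.5 with low and 143.7 with high seeding. It passed on the last array alone. The divergent transcript HNRNPD-DT passed narrowly, at 166, 102 and 180.

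The classical SR proteins were all above background. SRSF1, the prototype of the class, gave 18388 at 24 h and 17777 and 19351 at 48 h. SRSF3, the smallest of them and an adaptor of messenger RNA export, gave 25821, 27449 and 28027. SRSF7, a further export adaptor, gave 17484, 18829 and 19206, and for both export adaptors the 24 h culture was lowest on these probe sets. Of the tested probe sets, 3 of 5 of SRSF3 and 1 of 4 of SRSF7 were higher at 24 h. SRSF2 was read only by 3 probe sets shared with the microRNA gene MIR636 that lies within it, and SRSF9 only by 2 probe sets shared with the neighbouring GATC. The SRSF2 probe sets ranged over the cultures from 8724 to 17980 and those of SRSF9 from 12798 to 15312, and neither gene could be counted among the 69.

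SRSF4 gave 5881 at 24 h and 6517 and 6453 at 48 h. SRSF6, its close relative, gave 5341, 5092 and 4351, and SRSF8 gave 5469, 5862 and 4475. No common order of the cultures appeared among the 3. SRSF10, the repressor activated by heat, was at 7769, 8959 and 8863, lowest at 24 h on this probe set, while 2 of its 5 tested probe sets were higher at 24 h. SRSF12, a relative that antagonises other SR proteins, was at 378, 441 and 453, also lowest at 24 h on its brightest probe set. The mean of that probe set was 4.09 times the mean threshold. The other probe set of SRSF12, also above background, was highest at 24 h, at 345 against 271 and 256. TRA2B, an activator of exons with purine-rich enhancers, was at 17449, 17585 and 18215. Its paralog TRA2A was at 5555, 4388 and 5049, and of its 5 probe sets 2 passed.

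**Figure D2:**
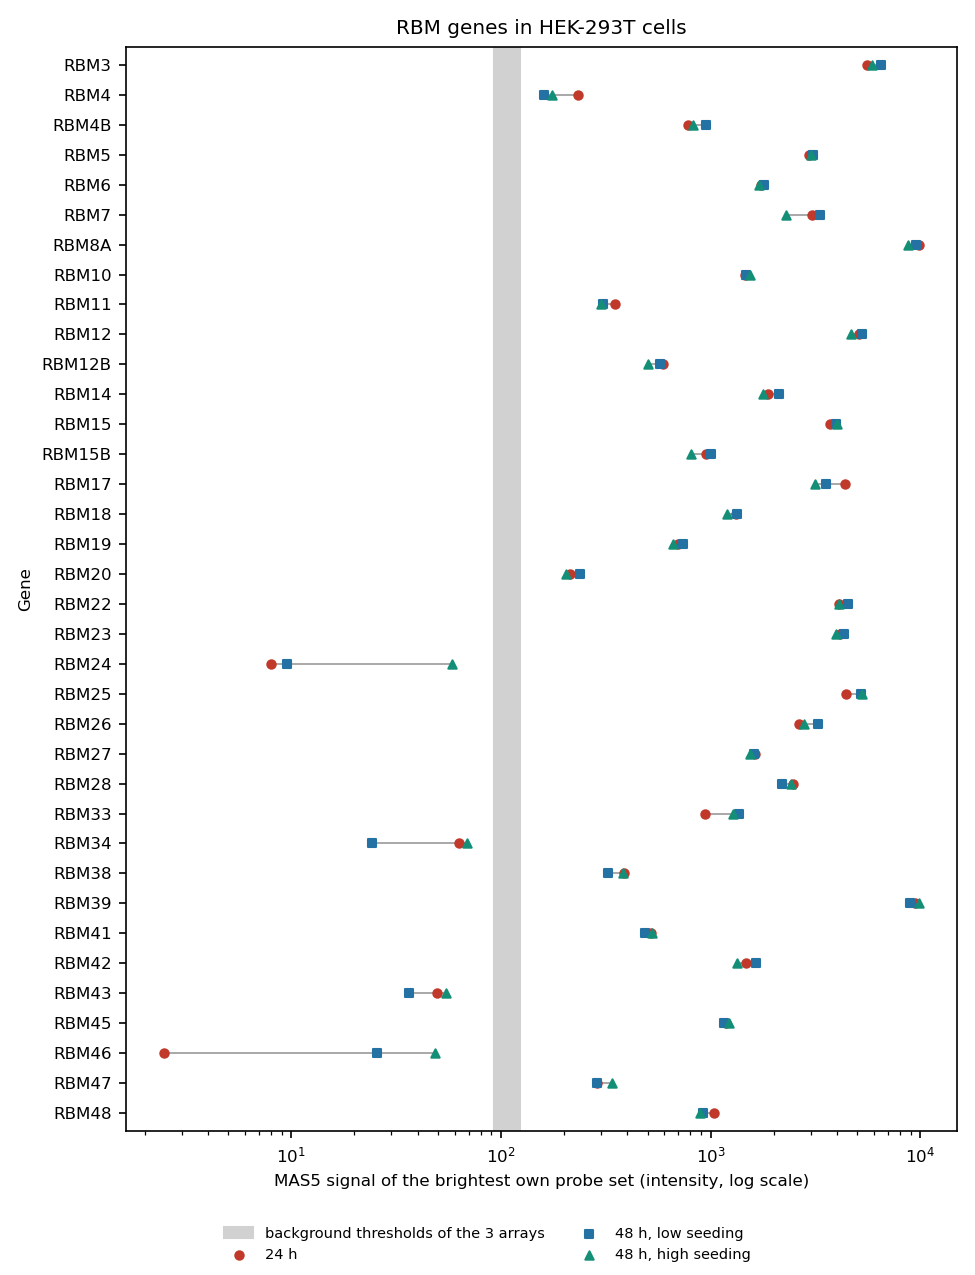
The same plot for the 36 RBM genes: MAS5 signal (log scale) of the brightest own probe set in each culture, with the 3 background thresholds as a grey band. RBM24, RBM34, RBM43 and RBM46 lie left of the band in all 3 cultures, and the remaining 32 genes lie right of it.

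All 10 RBM genes of the spliceosome and its regulators were above background. RBM8A, the Y14 subunit of the exon junction complex, gave 9829 at 24 h and 9491 and 8745 at 48 h. RBM39, the splicing factor degraded by aryl sulfonamide drugs, gave 9467, 8930 and 9869. RBM22, which sits close to the catalytic centre, gave 4083, 4531 and 4107. The 24 h culture was highest for RBM8A, between the others for RBM39 and lowest for RBM22. RBM25 was at 4422, 5195 and 5242. RBM17, which acts at the end of the intron, was at 4386, 3540 and 3144. On these probe sets the 24 h culture was lowest for RBM25 and highest for RBM17, neither of which was called below. Their other probe sets were divided: 3 of 6 tested for RBM25 and 1 of 3 for RBM17 were higher at 24 h.

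RBM5, RBM6 and RBM10, related regulators of exon inclusion, gave 2944 to 3074, 1700 to 1797 and 1449 to 1536 over the 3 cultures. RBM15, which guides the adenosine methyltransferase to its targets, gave 3687 to 4014. RBM4 was at 233, 161 and 175 on its own probe set, but the brightest probe set shared with the read-through transcript RBM14-RBM4 gave 4779, 4800 and 4953. Of the others so shared, one passed at 204 to 315. The rest were not above background, at 65.7 to 98.2 and at 5.07 to 38.6. RBM3, the cold-inducible protein, was at 5580 at 24 h and at 6516 and 5903 at 48 h, with the 24 h culture lowest.

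Other RBM genes, whose roles range from RNA decay to methylation, were also above background. RBM7, which directs the nuclear exosome to short-lived transcripts, gave 3037 at 24 h and 3319 and 2290 at 48 h, so that the 48 h cultures lay on both sides of it. RBM33 gave 943 at 24 h and 1371 and 1272 at 48 h, with no overlap, and its difference of -0.48 did not pass the test (limma adjusted p 0.242). RBM15B, the paralog of RBM15, gave 805 to 1003. RBM14, a paraspeckle protein, gave 1778 to 2108. RBM48, a factor of the minor spliceosome, gave 887 to 1039, highest at 24 h, though only 1 of its 4 tested probe sets was higher at 24 h. RBM12 (4665 to 5249), RBM23 (3964 to 4299), RBM26 (2642 to 3236), RBM27 (1532 to 1625), RBM42 (1334 to 1639), RBM18 (1193 to 1328), RBM45 (1158 to 1225), RBM4B (780 to 953), RBM12B (502 to 594) and RBM41 (488 to 525) complete the set.

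Of the ribosome assembly factors, RBM19 (662 to 740) and RBM28 (2190 to 2463) were above background on their own probe sets. The own probe set of RBM34 was not, at 62.8, 24.3 and 68.5, while 2 probe sets shared by RBM34 and its neighbour ARID4B were, the brighter at 8329, 8321 and 8230. Whether RBM34 or ARID4B carries that signal cannot be read from the array.

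RBM genes that were grouped beforehand by tissue were divided, with 4 of 6 measured above background, where 51.4% of all genes were. RBM24, a splicing regulator of muscle and heart, gave 7.96, 9.52 and 58.4. RBM46, a germ cell protein, gave 2.47, 25.7 and 48.4 on the brighter of 2 probe sets, and neither gene passed on any array. RBM43, which is outside this group, was likewise under the threshold with both probe sets, at 28.6 to 56.5. RBM20, which splices titin in the heart, passed with 214, 238 and 205. RBM38, a target of p53, passed with 384, 323 and 380. RBM47, a cofactor of messenger RNA editing in gut and liver, passed with 286, 287 and 337 on 1 of its 5 probe sets, and RBM11 passed with 348, 305 and 298. With the 99th percentile as the threshold RBM20 no longer passed.

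A gene above background was not above it on every probe set. Of 56 member genes with several own probe sets, 28 passed with all, 26 with some and 2 with none (for all 10523 such genes of the array, 25.9% passed with all and 40.4% with some). Of the 50 own probe sets that did not pass, 43 belonged to a gene with another that did. Among the genes with most probe sets, HNRNPD, which steers decay of AU-rich messenger RNA, passed with 6 of 9, SRSF1 with 7 of 8, RBM15 with 6 of 7, HNRNPC, RBM25 and RBM26 each with 5 of 7, RBM33 with 4 of 7 and HNRNPM with 3 of 7. Within a gene, 1 probe set could be bright and another at background. HNRNPC was read at 21824 to 23894 by its brightest probe set and at 4.67 to 5.95 by another, and HNRNPD at 16363 to 19069 and 2.28 to 8.67.

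**Figure D3:**
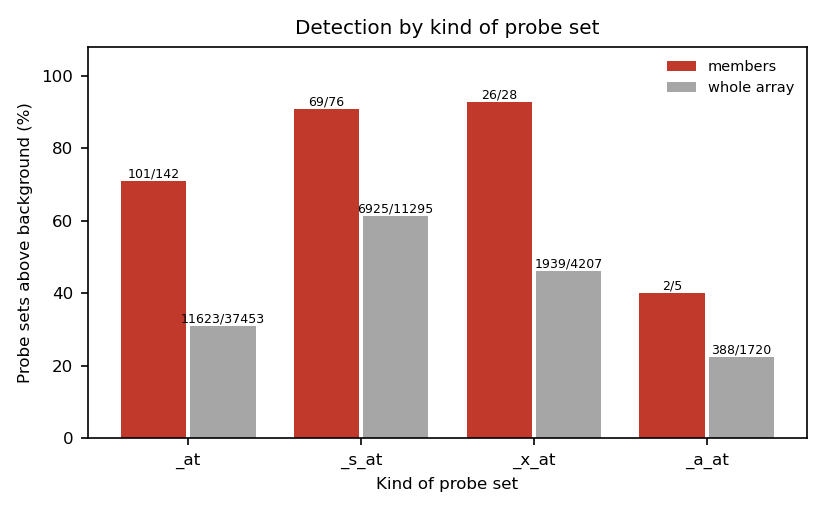
Share of probe sets above background (vertical, percent) by the kind of probe set, for the members (red) and the whole array (grey), with counts over the bars. The _at kind reads 1 transcript by design, and _s_at, _x_at and _a_at can read several. Members passed in 71.1% of _at and 90.8% of _s_at probe sets, above the array's share in each kind.

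Kind of probe set moved with detection. Probe sets designed to read 1 transcript (suffix _at) passed in 101 of 142 members (71.1%, 31.0% over the array), those that can read several transcripts of a gene or family (_s_at) in 69 of 76 (90.8%, 61.3% over the array) and those open to cross-hybridisation (_x_at) in 26 of 28 (92.9%, 46.1% over the array). Members whose target sequence was a RefSeq messenger RNA passed in 44 of 46 (95.7%), against 53.4% of all such probe sets. The part that probe design plays in the members' high share was not tested. With _s_at and _x_at left out altogether, 103 of 147 member probe sets were above background, where 31.0% of all _at and 22.6% of all _a_at probe sets of the array were.

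Members above background were measured evenly. Their SD on the log2 scale over the 3 cultures had a median of 0.11 (198 probe sets), against 0.15 for all 20875 probe sets above background. Between the quartiles of the members' signals, where brightness is alike, the medians were 0.11 for 98 members and 0.11 for all 9711 probe sets. By class the median SD was 0.09 for HNRNP, 0.11 for SRSF, 0.17 for TRA2 and 0.12 for RBM. Members not above background had a median SD of 0.50, and their values set no order of the cultures.

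Few of these genes were called different between harvest at 24 h and at 48 h. The 24 h array was compared with both 48 h arrays by limma on log2(signal + 20.2) over the 22789 probe sets bright enough to test, with Benjamini-Hochberg adjustment over all of them. The added value shrinks the differences of dim probe sets. Of 210 members tested, 3 were called at an adjusted p under 0.05. All 3 were higher at 24 h, where 0.228% of all probe sets were called higher, and 0 were called lower, where 0.0746% of all were. At an unadjusted limma p under 0.05 stood 26 of 210 members (12.4%) and 2116 of 22789 probe sets tested (9.29%). The fit has 1 residual degree of freedom, and an exact permutation test of 1 array against 2 cannot go below p = 0.333. That degree of freedom comes from the 48 h cultures alone, which were seeded differently. The spread between 24 h cultures was not measured. For each probe set, limma draws the spread toward a trend of spread with signal over all probe sets tested. The SE given below are therefore not the measured spread of that probe set alone.

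Members that were higher and members that were lower at 24 h were about equally many. The log2 difference, 24 h minus 48 h, was above 0 for 99 of 210. Its median was -0.010, against 0.0047 over all probe sets tested, and turned to 0.0050 with quantile normalization and to 0.043 with scaling to equal medians, where that over all was 0.056. It lay within 0.25 of 0 for 163 (77.6%, against 67.3% of all) and beyond 0.5 for 12 (5.71%, against 9.64% of all). By class the median was 0.01 for HNRNP, -0.03 for SRSF, 0.02 for TRA2 and -0.02 for RBM. The 24 h signal was above both 48 h signals for 70 of 210 (33.3%, against 35.1% of all probe sets tested) and below both for 77 (36.7%, against 35.4%), so that both shares lay near the background.

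**Figure D4:**
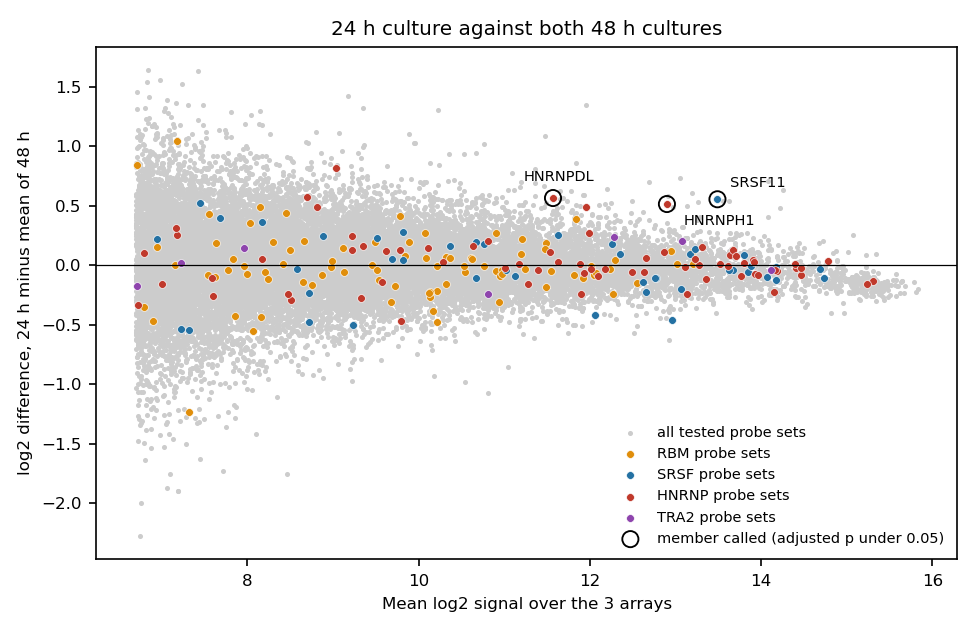
Log2 difference between the 24 h culture and the mean of the 48 h cultures (vertical) against the mean log2 signal over the 3 arrays (horizontal) for all 22789 tested probe sets (grey) and the 210 tested members (coloured by class). The 3 called members, of SRSF11, HNRNPH1 and HNRNPDL, are circled at 0.51 to 0.56 above 0, and most other members lie inside the grey cloud around 0.

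The called probe sets were those of SRSF11, HNRNPH1 and HNRNPDL. SRSF11, an SR-like protein that joins the early spliceosome, gave 14901 at 24 h and 10052 and 10228 in the low- and high-seeded 48 h cultures. The 24 h culture stood above both others, which lay close together, with a log2 difference of 0.55 ± 0.09 (SE) and a limma adjusted p of 0.0124. HNRNPH1, a protein of guanosine runs, gave 9690 at 24 h and 6627 and 6930 at 48 h. Again the cultures did not overlap, with a difference of 0.51 ± 0.10 (SE) and a limma adjusted p of 0.0247. HNRNPDL, a relative of HNRNPD, gave 3954 at 24 h and 2587 and 2748 at 48 h. It differed by 0.56 ± 0.11 (SE) with a limma adjusted p of 0.0325.

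The calls were not shared by the other probe sets of these genes. For SRSF11 the other tested probe sets differed by 0.25 (3553 against 3073 and 2896) and 0.16 (1426 against 1247 and 1304), higher at 24 h but without passing the test. For HNRNPH1 they differed by -0.02 on the brightest, which read 22411 against 21637 and 23902, by -0.09 and by 0.31. For HNRNPDL they differed by -0.04, 0.13, -0.01 and -0.04, the brightest reading 18140 against 17059 and 20514. Whether the probe sets of a gene differ from each other was not tested. The calls also rest on how the spread was estimated. All 3 were lost when limma was run without its mean-variance trend and when the arrays were scaled to equal medians, where the differences themselves remained between 0.51 and 0.62.

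**Figure D5:**
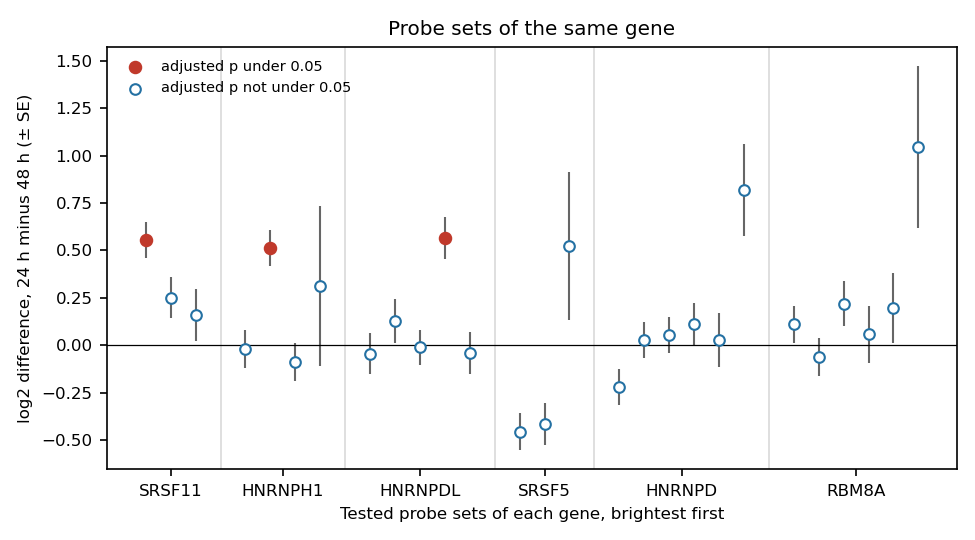
Log2 difference, 24 h minus 48 h (vertical, ± SE of the limma fit), of each tested own probe set of 6 genes, brightest first within a gene. Filled points have an adjusted p under 0.05. In SRSF11, HNRNPH1 and HNRNPDL 1 probe set each is called at 0.51 to 0.56 and the others lie between -0.09 and 0.31.

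SRSF5, an SR protein first found as an insulin-induced gene, had the lowest adjusted p among members lower at 24 h and did not pass the test. Its brightest probe set gave 6439 at 24 h, against 9182 (low-seeded) and 8507 (high-seeded), which is a difference of -0.46 ± 0.10 (SE) with a limma adjusted p of 0.0579. A second one gave 3515, 5049 and 4367, a difference of -0.42 (limma adjusted p 0.140). The third went the other way, with 132.9 and 176 at 48 h and 229 at 24 h, close to background. The probe set of HNRNPH2, shared with the read-through transcript RPL36A-HNRNPH2, gave 4974 at 24 h and 3857 and 3252 at 48 h, with a difference of 0.49 and a limma adjusted p of 0.0857.

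Besides the called probe sets, the largest fitted differences belonged to dim probe sets and passed no test, and 3 of them had signals under the background threshold in part of the cultures, so that the size of their differences was not measured. These were RBM8A (249 at 24 h, 130 and 93.7 at 48 h, the last under its threshold), RBM25 (166, 91.6 and 76.2, both 48 h values under their thresholds) and RBM47 (82.8, under its threshold, against 194 and 253). Each was among the tested probe sets only because its mean over the cultures was bright enough. Among the 5 largest increases, HNRNPD (780 against 361 and 519, 0.82 ± 0.24 SE) and HNRNPA1 (547 against 348 and 375, 0.57 ± 0.25) were above background on all arrays, and HNRNPDL made the fifth. In RBM8A, RBM25, HNRNPD and HNRNPA1 the brightest own probe sets differed by 0.11, -0.24, -0.22 and 0.06. Among the 5 largest decreases, those above background on all arrays were a probe set shared by RBM4 and RBM14-RBM4 (204 against 315 and 300, -0.55), SRSF4 (121 against 182 and 188, -0.54), SRSF1 (114 against 141 and 213, -0.53) and SRSF6 (474 against 578 and 794, -0.50). In RBM47, SRSF4, SRSF1 and SRSF6 the brightest own probe sets differed by -0.12, -0.14, -0.01 and 0.18. Of 53 member genes with several tested own probe sets, 18 had them all on the same side of 0.

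The shared probe sets added little to the comparison. Of 20, 17 were above background (85.0%, against 38.2% of all probe sets). Among them 0 were called, where 0.303% of all probe sets tested were. Besides those of HNRNPA1, HNRNPH2, SRSF2, SRSF9, RBM4 and RBM34, 3 were shared by HNRNPA3 and its pseudogene HNRNPA3P1, the brightest at 13291, 13915 and 14335, so that the pseudogene's own low probe set stands beside bright shared ones. One was shared by HNRNPCL1, HNRNPCL2, HNRNPCL3 and HNRNPCL4, intronless copies of HNRNPC, at 183, 206 and 191. Read-through HNRNPUL2-BSCL2 shared one with BSCL2, at 938, 911 and 806, and one with HNRNPUL2, at 119, 82.8 and 214, which missed its threshold in the low-seeded culture.

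Most factors that act with the members were above background too, where 51.4% of all genes were. Of 9 SR protein kinases and import factors measured, 8 were above background, among them SRPK1 (6423 to 7343), CLK2 (1475 to 1478) and the SR importin TNPO3 (2536 to 2783). The muscle kinase SRPK3 was not, at 17.0, 25.6 and 37.2. All 7 measured genes of nuclear stress bodies, SRSF1 and SRSF7 among them, were above background, with HSF1 at 262, 343 and 250 and SAFB, a scaffold of these bodies, at 1860, 1703 and 1668. Of 53 other splicing regulators measured, 37 were above background. Those that were not included the neuronal factors CELF3, CELF4, CELF5, ELAVL3, ELAVL4, NOVA2, RBFOX1 and RBFOX3 and the epithelial regulator ESRP1, at 50.0, 107 and 8.28. Other neuronal factors were above background, ELAVL2 with 2 of 2 probe sets (909 to 1156), PTBP2 with 2 of 2 (1253 to 1305) and NOVA1 with 1 of 3 (331 to 390). In none of the 3 lists was a probe set called between 24 h and 48 h, over 16, 23 and 128 tested, with median log2 differences of 0.02, -0.04 and -0.01. Over all probe sets tested 0.303% were called, so that 0 calls in lists of this size say little about these genes. The second list includes the member probe sets of SRSF1 and SRSF7.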

How the data were processed

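The authors made labelled complementary RNA from the total RNA of 3 HEK-293T cultures and hybridised it to Affymetrix U133 Plus 2.0 arrays. They deposited MAS5 signals (GCOS 1.0 in the submitters' processing notes), an intensity on a linear scale. The signals were scaled to a mean of about 500.07 after 2% was trimmed at each end. Absent/present calls were not used here. Only 3 arrays limit the precision. No pair of arrays held identical values.

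Gene symbols came from the platform annotation and were updated by gene ID to RefSeq GRCh38.p14. Probe sets listed for several genes named none. The 24 h array was compared with both 48 h arrays with limma 3.58.1 (R 4.3.3; lmFit, eBayes with trend) on log2(signal + 20.2), the median of the reference probe sets, over probe sets with a mean log2 signal above that of the mean threshold (103.6). Of the 366 reference probe sets, 5 were themselves above background. Scripts were tested on simulated data. Members and gene lists were chosen with earlier results of these data known. Named were genes with no probe set above background, called probe sets, the 5 largest changes each way, shared probe sets, genes with most probe sets on both sides of the threshold, and members listed by role. The alternatives tried were other percentiles, references, numbers of arrays, added values, filters, scalings and probe set choices, no trend, and leaving out arrays.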

Additional observations from a re-analysis of the deposited data

How the results depend on the processing

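The member genes above background numbered 64 with any 1 array left out, and the probe sets 202 to 204. Without the _s_at and _x_at probe sets, which can share sequence, 103 of 147 member probe sets were above background, a smaller share than the 198 of 251 with them. HNRNPA3P1 passed at the 90th percentile and with receptors as the only reference, and RBM20 no longer passed at the 99th. The 3 calls, all higher at 24 h, fell to 0 with scaling to equal medians (8 members at an unadjusted p under 0.05), to 0 without the mean-variance trend (11) and to 0 when probe sets that can share sequence or are shared were left out (8 of 105 tested); the last setting removes the called probe sets themselves, and for the others the cause was not tested. Quantile normalization added 1 call lower at 24 h, that of SRSF5. Over the whole array the 69 calls (52 higher, 17 lower) became 13 with equal medians (7 higher, 6 lower) and 0 without the trend. They were 62 to 91 in the other settings. At an unadjusted limma p under 0.05 stood 911 of 22838 probe sets with equal medians and 1371 of 22789 without the trend. Over the alternatives the limma adjusted p of SRSF11 ran from 0.00180 to 0.762, of HNRNPH1 from 0.00668 to 0.929 and of HNRNPDL from 0.0190 to 1.00, while leaving out either 48 h array kept their differences between 0.48 and 0.61, with no test possible. The members' median difference ran from -0.02 to 0.04. No paired analysis was possible because the labels carry no replicate numbers and there is 1 array at 24 h.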
